A study of Mus musculus with 36 samples.

Results

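H3K27ac peaks around the bone morphogenetic protein (BMP) ligand genes Bmp2, Bmp4 and Bmp7, the inhibitory Smad gene Smad7 and the homeobox genes Msx1 and Msx2 were described in mouse embryonic forelimbs. Members were the peaks that overlapped 6 windows of the mm9 genome: chr2:133200000-133600000 for Bmp2, chr14:46700000-47300000 for Bmp4, chr2:172550000-172850000 for Bmp7, chr18:75400000-75700000 for Smad7, chr5:38100000-38350000 for Msx1 and chr13:53400000-53700000 for Msx2. The windows held 1822 of the 732259 peaks summed over 18 lists. These peaks fell into 148 of 63594 consensus regions, which are stretches covered by peaks of at least 2 lists, and 21 of them lay outside any such region. The Bmp2 window had 18 regions, Bmp4 25, Bmp7 38, Smad7 29, Msx1 15 and Msx2 23. A window is a stretch around a gene, and no gene body was placed in it because no mm9 annotation was at hand, so a region is named by its window and is not assigned to the gene.

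BMP ligands are secreted proteins of the TGF-beta family. They bind pairs of type I and type II serine/threonine kinase receptors, which phosphorylate Smad1, Smad5 and Smad8/9, and these enter the nucleus with Smad4. Smad7 is an inhibitory Smad that blocks this signal at the receptor, and Msx1 and Msx2 encode homeodomain repressors whose transcription BMP signals induce. In the limb bud, BMPs act from the apical ectodermal ridge and the mesenchyme on digit patterning, on cell death between the digits and on later skeletal differentiation. Acetylation of histone H3 at lysine 27 (H3K27ac) marks active enhancers and promoters.

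The study profiled H3K27ac by ChIP-seq in pooled forelimbs of FVB mouse embryos at embryonic day 11.5, and asked what removal of a single limb enhancer does to this mark. The groups were 4 libraries of mm1179KO, 2 each of hs72KO, hs1262KO, hs1467KO, hs1586KO and hs1603KO, each line lacking the enhancer in its name, and 4 of wild type (WT). No group received a treatment, and the labels do not state whether every embryo of a pool was homozygous. Tissue was pooled and bulk, so a lower mark per cell and fewer cells carrying it cannot be told apart. Nothing says that the libraries of a group came from separate litters, so p-values measure the spread between libraries, which may be technical.

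The lists carried a run tag that the labels do not give. Run 1 held replicates 1 and 2 of mm1179KO and WT, and run 2 held replicates 3 and 4 of both groups with the 2 hs72KO libraries. Run 3 held replicate 1, and run 4 replicate 2, of hs1262KO, hs1467KO, hs1586KO and hs1603KO. Lists of run 4 had 54375 to 58753 peaks, those of run 3 had 26550 to 32472, those of run 2 had 37846 to 45267 and those of run 1 had 30719 to 37929. For the 4 lines of runs 3 and 4, genotype and run cannot be told apart against WT, and replicate number and run cannot be told apart either. No read counts come with the peaks, which leaves the depth unknown, and a region without a peak is a call not made.

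RefSeq promoter sequences (GRCm38.p6, from 250 bases before to 50 after the transcription start, 5′ to 3′ on the gene's strand) were at hand for Bmp4, Msx1 and Msx2. Bmp2 and Bmp7 had no entry and Smad7 was left out, so the 3 sequences shown were not chosen by their peaks. Whether they relate to the run 3 calls was not tested. All 3 genes lie on the minus strand, at chr14:46390620-46390919, chr5:37824536-37824835 and chr13:53472731-53473030, and these positions belong to another build and were not placed in mm9. Capitals mark GTCT or its reverse complement AGAC, the core letters that Smad proteins are known to bind.
Bmp4: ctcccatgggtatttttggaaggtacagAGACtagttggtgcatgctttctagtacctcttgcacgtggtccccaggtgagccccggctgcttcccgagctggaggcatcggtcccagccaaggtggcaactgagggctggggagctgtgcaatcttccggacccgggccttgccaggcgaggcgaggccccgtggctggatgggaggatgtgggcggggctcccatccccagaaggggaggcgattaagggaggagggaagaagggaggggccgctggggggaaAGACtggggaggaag
Msx1: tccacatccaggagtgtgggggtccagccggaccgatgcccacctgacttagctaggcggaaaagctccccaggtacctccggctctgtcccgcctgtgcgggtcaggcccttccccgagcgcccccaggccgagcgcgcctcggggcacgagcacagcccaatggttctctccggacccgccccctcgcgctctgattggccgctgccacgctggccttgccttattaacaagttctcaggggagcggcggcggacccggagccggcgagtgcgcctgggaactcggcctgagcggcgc
Msx2: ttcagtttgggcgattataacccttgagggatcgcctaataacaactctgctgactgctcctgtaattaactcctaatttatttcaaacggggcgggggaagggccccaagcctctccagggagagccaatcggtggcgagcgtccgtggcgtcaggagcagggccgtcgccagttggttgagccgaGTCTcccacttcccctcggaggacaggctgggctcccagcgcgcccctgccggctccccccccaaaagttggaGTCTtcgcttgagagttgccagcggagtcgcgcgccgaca
The Bmp4 and Msx2 sequences each held 2 GTCT or AGAC matches, and the Msx1 sequence held 0. Of 32851 mouse promoters of this length, 88.0% held at least 1 match. The other motif searched, the GC-rich palindrome GGCGCC on both strands, was in none of the 3 and in 11.9% of all promoters. The Msx1 sequence was rich in CG dinucleotides, with 29, more than 87.1% of promoters had. Msx2 had 22 CG dinucleotides and Bmp4 had 12, against a median of 7. The share of G and C was 64% for Bmp4, 70% for Msx1 and 61% for Msx2, against a median of 52.7%. A match describes the letters only, and the absence of one says nothing of binding.

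The windows were richer in peaks than most of the genome. On the mean over 18 lists, peaks covered 6.80% of the Bmp2 window, 7.92% of Bmp4, 22.7% of Bmp7, 30.9% of Smad7, 11.2% of Msx1 and 13.6% of Msx2. The median over 5237 tiles of 300 kb was 4.70%. The Smad7 window stood above 99.3% of tiles, Bmp7 above 97.4%, Msx2 above 89.8%, Msx1 above 84.0%, Bmp4 above 71.97% and Bmp2 above 65.9%. Tiles were kept only where their mean covered length was at least 3 kb. In the order of the reference gene table, the nearest protein-coding neighbours were Fermt1 and Hao1 for Bmp2, Ddhd1 and Cdkn3 for Bmp4, Tfap2c and Spo11 for Bmp7, Dym and Ctif for Smad7, Cytl1 and Stx18 for Msx1, and Gm38564 and Drd1 for Msx2.

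Between mm1179KO and WT forelimbs no region of the 6 windows was called in all lists of one group and in none of the other. Of 132 regions called in any of these 8 lists, 0 were called in every mm1179KO and no WT list, and 0 in every WT and no mm1179KO list. Over all 54583 such regions the shares were 0.0348% and 0.0769%. Calls per region, tested by Fisher's exact test and adjusted over all regions by the Benjamini-Hochberg method, gave 0 regions past the threshold in the windows or elsewhere. The unadjusted p was under 0.05 for 61 regions of the genome and for 0 in the windows. The covered length of a region is the number of its bases under a peak. By this measure 4 of the 132 regions were higher in every mm1179KO than in every WT list, against 0.632% of all regions, and 0 were lower, against 0.236%. Complete separation, by which the 4 were picked, fixes the exact permutation p of each at 0.0286, the smallest that 4 lists against 4 can give. The adjusted p of each was 1. In either direction, 3.03% of member regions and 0.868% of all regions did not overlap between the groups. With a minimum score of 100 this held for 2 of 74 member regions (2.70%), against 0.868% of all, and with lists of equal length for 2 of 84 (2.38%), against 1.14%. It held for 12 of 130 without mm1179KO replicate 2 (9.23%, against 5.07% of all regions), for 7 of 129 without mm1179KO replicate 4 (5.43%, against 2.08%) and for 7 of 129 without WT replicate 2 (5.43%, against 2.02%).

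The largest of these 4 was a region of the Bmp2 window (chr2:133375911-133381492), with 3284, 3521, 5306 and 5308 bp covered in mm1179KO lists and 3031, 1805, 1386 and 2432 bp in WT lists. In the Bmp7 window, region chr2:172563163-172566727 had 2775, 2496, 3043 and 2543 bp covered in mm1179KO lists and 1622, 2034, 2194 and 2157 bp in WT lists. Both were called in all 8 lists, so the groups stood apart in bases covered and not in whether a peak was called. In the Bmp2 region mm1179KO replicate 4 and WT replicate 4 each had 2 peaks. The region chr5:38248083-38250316 of the Msx1 window had 1356, 1706, 1302 and 1896 bp covered in mm1179KO lists, and 0, 938, 930 and 1231 bp in WT lists. Region chr13:53678899-53681295 of the Msx2 window had 1599, 1623, 1680 and 1994 bp covered in mm1179KO lists, and 0, 1433, 1485 and 1546 bp in WT lists. In these last 2 regions WT replicate 1 had no call.

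Whole windows were compared next by the total length under peaks (the plot of covered bases by list). In the Bmp2 window, peaks covered 20116, 15538, 27600 and 32357 bp in mm1179KO lists and 15317, 16490, 16392 and 29161 bp in WT lists. The groups overlapped: the mean was 23903 ± 7516 bp in mm1179KO and 19340 ± 6569 bp in WT (SD, n = 4 each, exact permutation p = 0.343). In mm1179KO the 2 lists of run 2 were the highest, and in WT replicate 4, also of run 2, stood above the other 3. Within runs, mm1179KO minus WT was 1923.5 bp in run 1 and 7202 bp in run 2. Both hs72KO lists, with 20373 and 32064 bp, lay within the range of the mm1179KO lists.

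**Figure D1:**
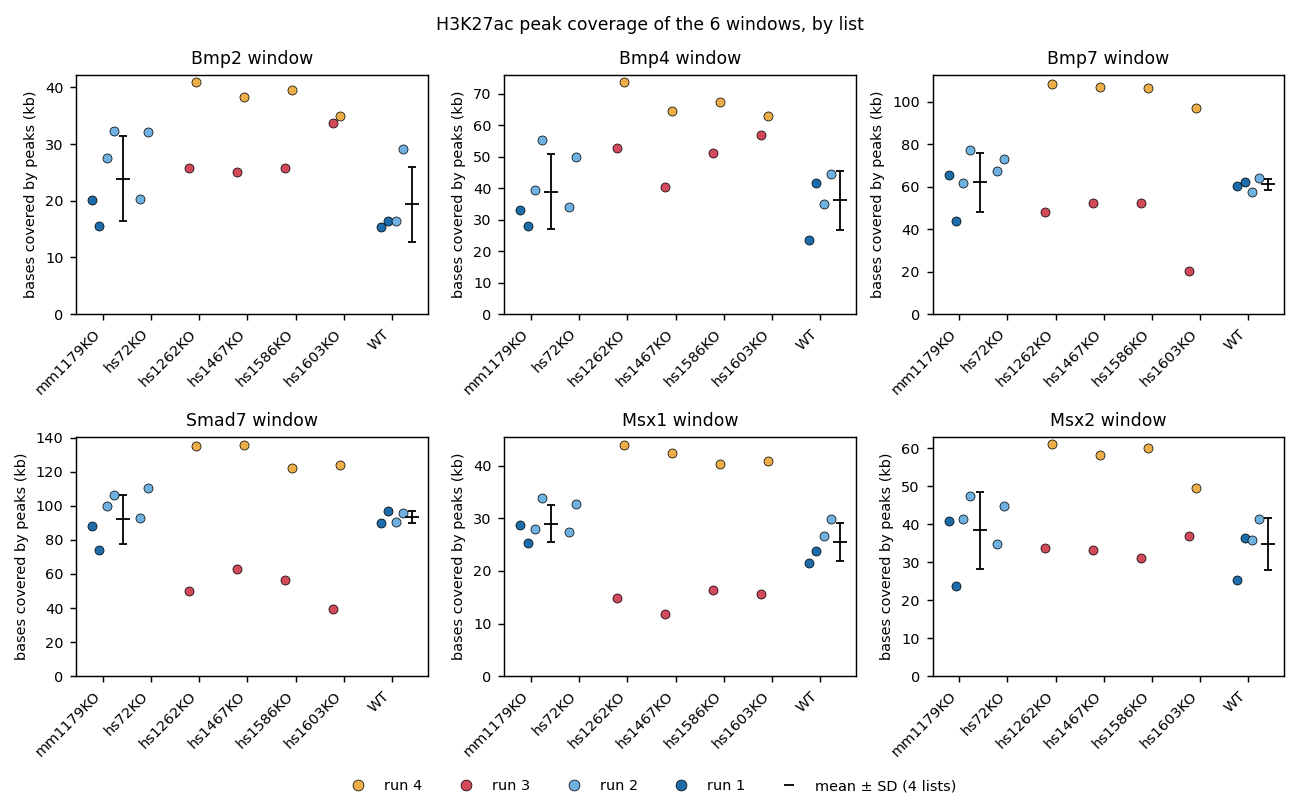
Bases covered by H3K27ac peaks (y axis, kb) in each of the 6 windows, by genotype (x axis), with 1 point per list coloured by run and bars giving mean ± SD of the 4 mm1179KO and the 4 WT lists. The mm1179KO and WT points overlap in all 6 panels, while run 4 points lie above run 3 points in every panel and run 3 points lie below those of runs 1 and 2 in the Smad7 and Msx1 panels.

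For Bmp4, a ligand required in early mesoderm and in limb mesenchyme, covered length was 33140, 27926, 39453 and 55290 bp in mm1179KO lists and 23614, 41774, 34917 and 44580 bp in WT lists. The means were 38952 ± 11868 bp in mm1179KO and 36221 ± 9334 bp in WT (SD, n = 4 each, exact permutation p = 0.743). The difference of 2731 bp was smaller than the SD of either group, and it took opposite signs in the runs, with -2161 bp in run 1 and 7623 bp in run 2. With peaks of a score of at least 100 it was -397 bp, and with lists of equal length -495 bp. The hs72KO lists had 34112 and 49966 bp.

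For Bmp7, a ligand of ridge and mesenchyme, mm1179KO lists had 65284, 43718, 61641 and 77019 bp covered and WT lists 60424, 62071, 57508 and 63932 bp. The mean was 61916 ± 13792 bp in mm1179KO and 60984 ± 2724 bp in WT (SD, n = 4 each, exact permutation p = 0.857). The WT lists were close together, and the mm1179KO lists lay on both sides of them, with -6746.5 bp between the group means in run 1 and 8610 bp in run 2. With windows widened by 50 kb on each side the difference was -20.5 bp. In hs72KO the lists had 67444 and 72867 bp, and the WT lists of run 2 had 57508 and 63932 bp. Over the genome, peaks covered 88.7 and 105.5 Mb in the hs72KO lists and 81.4 and 101.7 Mb in these WT lists. The share of tiles split in the same way was not computed, and 2 lists against 2 cannot give an exact two-sided p under 0.333.

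The Smad7 window, the most densely covered, had 87901, 73932, 100021 and 106289 bp in mm1179KO lists and 89871, 96750, 90467 and 96025 bp in WT lists. The group means were 92036 ± 14280 bp in mm1179KO and 93278 ± 3611 bp in WT (SD, n = 4 each, exact permutation p = 0.914). Within runs, mm1179KO minus WT was -12394 bp in run 1 and 9909 bp in run 2. The exact permutation p was 0.333 in each run, the smallest that 2 lists against 2 can give. Over the genome, run 1 lists covered 80.7 and 62.6 Mb in mm1179KO and 75.8 and 86.0 Mb in WT. Those of run 2 covered 97.2 and 115.3 Mb in mm1179KO and 81.4 and 101.7 Mb in WT. The hs72KO lists had 92551 and 110255 bp.

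In the Msx1 window mm1179KO lists had 28753, 25371, 27902 and 33774 bp covered and WT lists 21501, 23685, 26685 and 29799 bp. The means were 28950 ± 3522 bp in mm1179KO and 25418 ± 3612 bp in WT (SD, n = 4 each, exact permutation p = 0.229). The groups overlapped, and mm1179KO was higher on the mean in both runs, by 4469 bp in run 1 and 2596 bp in run 2. With every list limited to its 26550 highest-scoring peaks the difference was 5305.75 bp (exact permutation p = 0.0286), and the p-values of this window under the other settings, including each list left out, ran from 0.114 to 0.457. The hs72KO lists had 27434 and 32768 bp.

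In the Msx2 window mm1179KO lists had 40847, 23839, 41387 and 47336 bp covered and WT lists 25389, 36368, 35955 and 41417 bp. The means were 38352 ± 10112 bp in mm1179KO and 34782 ± 6737 bp in WT (SD, n = 4 each, exact permutation p = 0.6). The lowest list of each group belonged to run 1 (mm1179KO replicate 2 and WT replicate 1), and the groups overlapped. The hs72KO lists had 34808 and 44751 bp. Of all 6 windows, 0 were higher in every mm1179KO than in every WT list, against 0.229% of tiles, and 0 were lower, against 0.172%.

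Against the 2 WT lists of run 2, both hs72KO lists called 5 of 128 regions that neither WT list called, 3.91% of members against 2.46% of all regions. The reverse held for 2 of the 128, 1.56% against 2.24%. The 5 lay in the Bmp4 window (2), the Bmp7 window (2) and the Msx2 window (1), and each was also called by at least 1 mm1179KO list. All but the Msx2 region were also called by a WT list of run 1. These counts are given without a test, since 2 lists against 2 cannot give an exact p under 0.333. No region of the 6 windows was called in every list of a single knockout line and in no other list, or was missing from every list of 1 line and present in all others. This was so for each of the 6 lines (0 of 148 in both directions). Over the genome such regions were rare too, with 0 to 61 of 63594 called only in a line (at most 0.0959%) and 0 to 10 missing only from a line (at most 0.0157%).

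Lists of run 4 and run 3 differed in all 6 windows. Peaks covered more of every window in each run 4 list than in each run 3 list, although both runs hold the same 4 lines, and 72.4% of tiles did the same. In the Bmp2 window the run 4 lists had 40873, 38397, 39606 and 35006 bp covered (hs1262KO, hs1467KO, hs1586KO and hs1603KO in this order), and the run 3 lists 25718, 25098, 25792 and 33638 bp. The fold was 1.396, and 1.71 over the genome. In the Bmp4 window run 4 had 73676, 64456, 67352 and 63004 bp, and run 3 had 52847, 40548, 51283 and 56950 bp, a fold of 1.33. These 2 windows thus differed between the runs by less than the genome did. With lists of equal length the sign turned, to -5601.5 bp for Bmp2 (exact permutation p = 0.2) and -7839 bp for Bmp4 (exact permutation p = 0.114).

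The Bmp7, Smad7 and Msx1 windows differed more than the genome did. For Bmp7 the run 4 lists had 108302, 106728, 106441 and 96797 bp, and the run 3 lists 48113, 52197, 52436 and 20473 bp, a fold of 2.41. For Smad7 run 4 had 134954, 135704, 122411 and 123637 bp, and run 3 had 50152, 62896, 56253 and 39556 bp, a fold of 2.47. For Msx1 run 4 had 43865, 42448, 40222 and 40928 bp, and run 3 had 14774, 11859, 16352 and 15545 bp, a fold of 2.86, the largest of the 6. In all 3 windows the difference kept its sign and an exact permutation p of 0.0286 with lists of equal length. Msx2 lay at the genome's fold, 1.70, with 61134, 58235, 60105 and 49446 bp in run 4 and 33602, 33299, 31100 and 36889 bp in run 3, and on equal lists it was -923.75 bp (exact permutation p = 0.771). The exact permutation p was 0.0286 for each window on the full lists, and 0.125, the smallest that 4 pairs allow, with the line as a block.

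Set against the 10 lists of runs 1 and 2, run 3 split the members into groups (the histogram of tiles by fold). Its mean covered length was 1.31-fold that of runs 1 and 2 in the Bmp4 window and 1.22-fold in the Bmp2 window. It was 0.906-fold in the Msx2 window, 0.685-fold in the Bmp7 window, 0.553-fold in the Smad7 window and 0.527-fold in the Msx1 window, against a fold of 1.02 over the genome. Run 3 was above runs 1 and 2 in 57.1% of tiles, and among members in the Bmp2 and Bmp4 windows only. Every run 3 list lay below every list of runs 1 and 2 in the Smad7 and Msx1 windows, as in 12.7% of tiles. The Msx1 and Smad7 folds were lower than those of all but 12.2% and 13.3% of tiles. Genotype, run and replicate number cannot be told apart in this contrast.

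**Figure D2:**
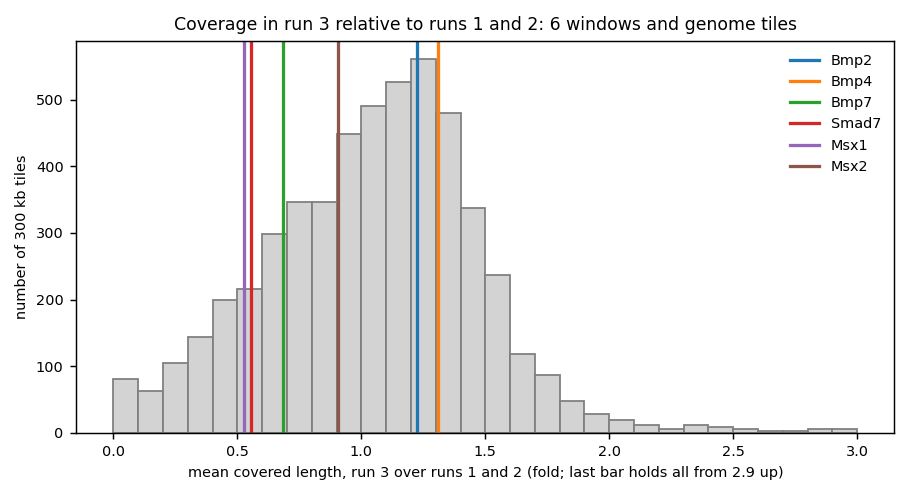
Number of 300 kb tiles (y axis) by the fold of mean covered length in run 3 over that in runs 1 and 2 (x axis), with a vertical line at the fold of each of the 6 windows. Msx1, Smad7 and Bmp7 lie left of the bulk of tiles at 0.527, 0.553 and 0.685, and Bmp2 and Bmp4 lie right of 1 at 1.22 and 1.31.

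Within windows, some regions had strong calls elsewhere and no run 3 call (the map of calls by region and list). All 18 lists called 24 of the 148 regions, 16.2% of members against 16.5% of all regions, and all 4 run 4 lists but no run 3 list called 28, 18.9% against 17.6%. Of the 49 member regions called in all 14 lists outside run 3, no run 3 list called 9, 18.4% against 23.5%. The counts of members were thus near those of the genome. By window, the 28 were 13 of 38 regions in Bmp7, 7 of 29 in Smad7 and 4 of 15 in Msx1. There were 2 of 18 in Bmp2, 2 of 23 in Msx2 and 0 of 25 in Bmp4. How far such counts vary between other stretches of the genome was not tested. The lists of runs 3 and 4 all called 2 regions that no run 1 list called, both in the Bmp2 window (chr2:133216066-133218501 and chr2:133439498-133441771), 1.35% of members against 0.778% of regions.

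**Figure D3:**
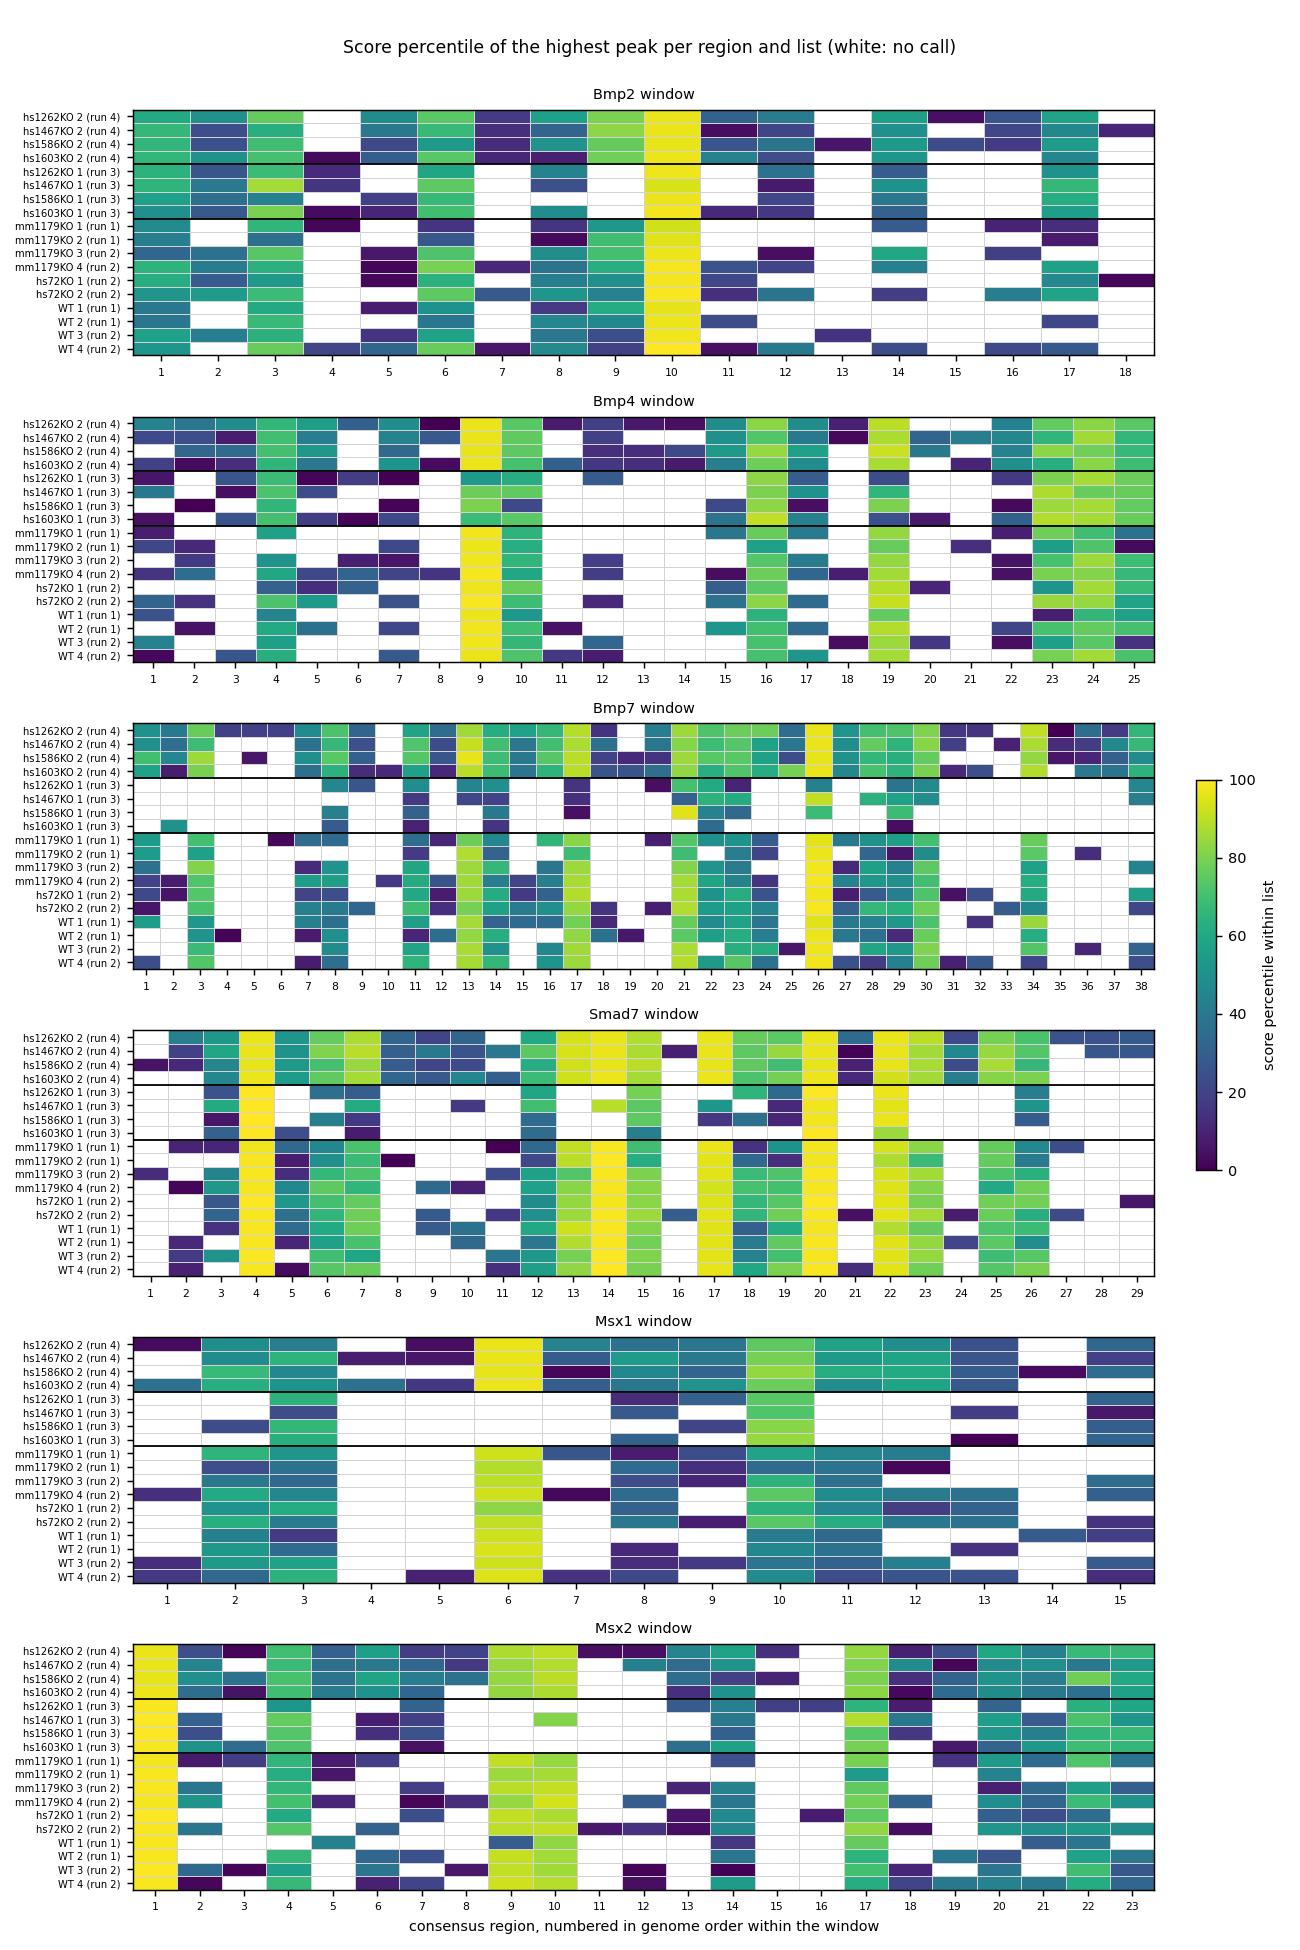
Score percentile within its list of the highest peak of each consensus region (colour, 0 to 100, white where no peak was called), with regions in genome order along the x axis of each of the 6 windows and the 18 lists down the y axis. Black lines set off run 4 (top), run 3 and runs 1 and 2. White columns of run 3 at region 6 of Msx1 and region 9 of Msx2 face calls in the other 14 lists, of which only that of WT replicate 1 in Msx2 has a low percentile (28.9), and Bmp2 region 10, Smad7 regions 4 and 20 and Msx2 region 1 are bright in all 18.

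Among the ligands, the region with the largest mean covered length in the Bmp2 window (chr2:133389407-133395334, 5928 bp) was called as 1 peak in every list. It covered 5257 to 5633 bp in run 4, 5347 to 5899 bp in run 3 and 4313 to 5352 bp in runs 1 and 2. The score is a value the authors gave each peak, and its percentile is the rank of a peak within its own list, ties sharing the mean rank. Percentiles of this region ran from 92.7 to 99.98 in all 18 lists, with 93.8 to 98.3 in run 3. Ranks from lists of such different lengths describe a peak within its own list and show no change between lists. Its neighbour chr2:133375911-133381492 (5582 bp) was called in all 14 lists outside run 3 and in none of run 3. The next regions called in all 18 lists were chr2:133222905-133227311, chr2:133262534-133265369 and chr2:133197855-133201317, with mean percentiles of 66.0, 61.0 and 54.7.

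The Bmp4 window had its widest domain at chr14:46998925-47012041 (13117 bp), also called in all 18 lists. It covered 11553 to 12943 bp in run 4, 8052 to 12535 bp in run 3 and 6732 to 12506 bp in runs 1 and 2. The main peak of this domain was 8138 to 8499 bp wide in run 4 and 8052 to 8704 bp in run 3. It was 7935 to 8431 bp wide in run 2 and 6732 to 7803 bp in run 1. Over whole lists, mean peak width was also lower in run 1 (2039 to 2268 bp) than in run 3 (2801 to 3374 bp). The score percentile of the main peak was 54.0, 77.7, 80.4 and 68.0 in the run 3 lists of hs1262KO, hs1467KO, hs1586KO and hs1603KO. In the other 14 lists it was 96.5 to 98.9. In run 4 this peak had a score of 3100, a value shared by 3037 to 3629 peaks of each of those lists, and a rank at that value is that of the tie. Regions chr14:47277567-47282991, chr14:47222646-47228231 and chr14:47192737-47198686 were also called in all 18 lists, at mean percentiles of 80.4, 77.6 and 76.2.

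In the Bmp7 window the widest domain (chr2:172748982-172767085, 18104 bp) was called in 17 lists. Run 4 covered 16507 to 17549 bp of it, at percentiles of 96.5 to 96.9, the rank of the tie at a score of 3100. In run 3 it covered 3335 bp in hs1262KO, 15726 bp in hs1467KO and 17564 bp in hs1586KO, at percentiles of 43.1, 91.0 and 68.1, and there was no call in hs1603KO. Runs 1 and 2 covered 13036 to 17004 bp, at percentiles of 95.2 to 98.9. The 4 run 3 lists therefore ranged over almost the whole width of the domain. Of the other regions in this window, chr2:172676058-172679187, chr2:172655303-172660319 and chr2:172783052-172785553 were called in all 18 lists, with mean percentiles of 50.5, 47.6 and 47.4.

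Smad7, the inhibitor, had the widest member of all (chr18:75522930-75567244, 44315 bp). Run 4 lists covered 42568 to 44210 bp of it in 1 to 2 peaks. In run 3 only hs1467KO replicate 1 called it, over 17785 bp at a percentile of 89.3, and hs1262KO, hs1586KO and hs1603KO had 0 bp. Lists of runs 1 and 2 covered 28572 to 40847 bp in 4 to 7 peaks. All 4 run 3 lists called chr18:75417514-75427915 (10402 bp), with 9579, 9606, 9771 and 10402 bp covered at percentiles of 99.8 to 99.95, and chr18:75618320-75626602 at 97.8 to 99.9. The third region called in all 18 lists, chr18:75635952-75640625, had a mean percentile of 94.0. Run 3 lists thus ranked 2 domains of this window among their highest peaks, while 3 of the 4 made no call in the widest.

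In the windows of the targets Msx1 and Msx2 no run 3 list called the widest domain. The widest domain of the Msx1 window (chr5:38207782-38220750, 12969 bp) had 12279 to 12969 bp covered in run 4, 0 bp in all 4 run 3 lists and 11514 to 12234 bp in runs 1 and 2. Its score percentile in run 4 was 96.5 to 96.9, the rank of the tie at a score of 3100. In runs 1 and 2 it was 83.0 to 94.6. In the same window chr5:38283684-38290024 was called in all 18 lists, at percentiles of 72.4 to 84.3 in run 3, and chr5:38159280-38163303 likewise, with a mean percentile of 48.2. The missing call was thus not shared by every region of the window.

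The widest domain of the Msx2 window (chr13:53556641-53569230, 12590 bp) had 11866 to 12590 bp covered in run 4, 0 bp in run 3 and 10402 to 12587 bp in runs 1 and 2. Run 4 lists and 3 others (mm1179KO replicate 4, hs72KO replicate 2 and WT replicate 1) called it as 1 peak, and the other 7 as 2. Percentiles were 83.9 to 87.7 in run 4 and 85.0 to 92.4 in 8 of the 10 lists of runs 1 and 2, with 84.2 in mm1179KO replicate 4 and 28.9 in WT replicate 1. The region chr13:53402029-53407512 of the same window stood at 99.0 to 99.5 in run 3, and chr13:53637486-53640189, also called in all 18 lists, had a mean percentile of 75.2.

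**Figure D4:**
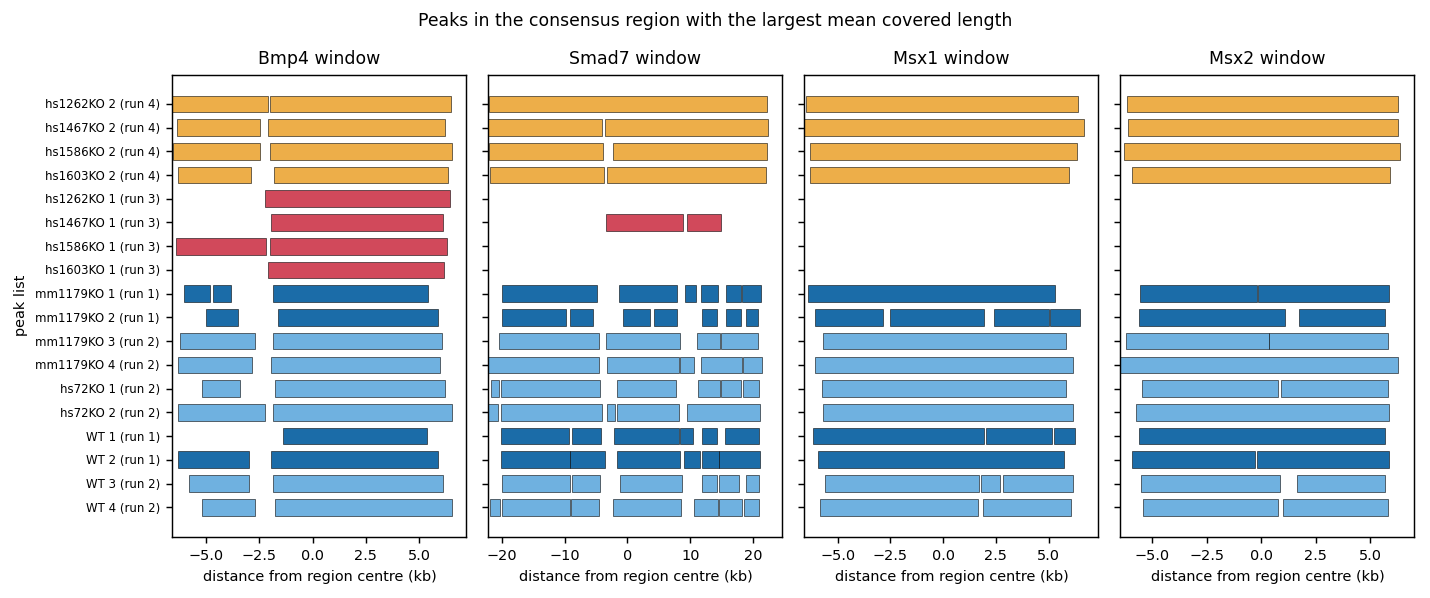
Peaks (bars) in the consensus region with the largest mean covered length of the Bmp4, Smad7, Msx1 and Msx2 windows, drawn by distance from the region's centre (x axis, kb) for the 18 lists (y axis), coloured by run as in the plot of covered bases. Run 3 rows are empty for Msx1 and Msx2, hold peaks of hs1467KO only for Smad7 and hold a peak of 8052 to 8704 bp in all 4 lists for Bmp4.

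Counted by base, the same contrast separated the members. Of the bases that peaks covered in all 14 lists outside run 3, no run 3 list covered 74.7% in the Msx1 window (10740 of 14375), 55.3% in Msx2 (10055 of 18188) and 37.0% in Smad7 (23878 of 64469). The share was 7.60% in Bmp7, 6.99% in Bmp2 and 0% in Bmp4 (0 of 17986), against 20.3% over the genome. All 4 run 3 lists covered 6.48% of those bases in the Bmp7 window, 18.3% in Msx1, 31.2% in Msx2 and 34.4% in Smad7. They covered 82.1% in Bmp2 and 100% in Bmp4, against 54.8% over the genome. For bases in no run 3 list, the Msx1, Msx2 and Smad7 shares lay above that of the genome. Those of the 3 ligand windows lay below it. For bases in all 4 run 3 lists, Bmp7 lay below the genome together with Msx1, Msx2 and Smad7. In Msx1 and Msx2, most bases in no run 3 list lay in the widest domain described above. By width, no run 3 list called 2 of 7 member regions of at least 10 kb, against 77 of 965 over the genome (7.98%), and 7 of 42 narrower ones, against 4391 of 18066 (24.3%). With 7 wide regions this count is a description only. The number of peaks per list also moved with run, and with lists of equal length 10 of 89 member regions were called in all of run 4 and in none of run 3, 11.2% against 14.9% of all regions. Its part in the base counts was not tested.

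The other members called in all 14 lists outside run 3 and in no run 3 list were, chosen after their values were seen, chr2:172563163-172566727 and chr2:172824377-172827284 in the Bmp7 window, chr18:75500844-75504977, chr18:75652131-75656410 and chr18:75660166-75665841 in Smad7, and chr5:38292016-38294892 in Msx1. Their mean percentiles in the lists that called them were 70.01, 69.05, 87.2, 82.5, 75.7 and 44.7. All but the last thus stood in the upper part of those lists by rank.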

How the data were processed

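Peak lists of 18 H3K27ac ChIP-seq libraries were used, 1 deposited list per library, and the 18 input samples were not used here. The submitters' processing notes name CASAVA, bcl2fastq (2.17), cutadapt (1.1), Bowtie (0.12.8), MACS (1.4.2) and the mm9 build. The labels do not say whether inputs served as control. Each deposited list gives the authors' score per peak, between 40 and 3233, used here only to rank or filter peaks inside that list. More reads from the same tissue can give longer lists and wider peaks.

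Bases under peaks of at least 2 lists were joined into consensus regions. An overlap of at least 1 bp counted as a call. Differences in covered length between 4 lists and 4 were tested by exact two-sided permutation over all 70 arrangements, and regions were tested over the genome with Benjamini-Hochberg adjustment. Other settings tried were peaks scoring at least 100, the top 26550 peaks of each list (lists of equal length), windows extended by 50 kb, regions of 1 list, calls needing 50% of a region, the replicate number or the line as a block, labels permuted within runs, and each list left out. Named regions were, per window, that with the largest mean covered length and up to 3 others called in all 18 lists with the highest mean percentile. Other regions were named for their values. These were the 4 with covered length higher in every mm1179KO than in every WT list and the 2 called in runs 3 and 4 but not in run 1. Regions called in all 14 lists outside run 3 and in none of run 3 were also named. Members and lists were chosen with earlier results of these data known. Other BMP pathway genes were not analysed here, for want of an mm9 annotation. The procedures were tested on simulated data. Software was Python 3.11.15 with numpy 2.4.6, scipy 1.17.1 and, for figures, matplotlib 3.10.9. All coordinates count from 1.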

Additional observations from a re-analysis of the deposited data

Results flagged for a closer look

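Covered length, number of peaks and widest peak were examined in each window over the 4 lists of mm1179KO, of WT, of run 4 and of run 3, 72 groups in all, of which chance flags about 1 in 20. In 10 of them a value stood apart from the other 3 by more than a Dixon test at the 95% level allows. In the Bmp2 window hs1603KO replicate 1 had 33638 bp covered, against 25098 to 25792 bp in the other run 3 lists, and WT replicate 4 had 29161 bp, against 15317 to 16490 bp in the other WT lists. In the Bmp7 window hs1603KO stood apart in both its runs. Its replicate 2 had 96797 bp covered, against 106441 to 108302 bp in the other run 4 lists, although it had the most peaks, 37 against 34 in each of the others. Its replicate 1 had 20473 bp covered, against 48113 to 52436 bp in the other run 3 lists. The widest peak of the Bmp7 window in mm1179KO replicate 2 was 8503 bp, against 12898 to 13180 bp in the other mm1179KO lists, and the domain was called there as 3 peaks. In the Smad7 window the widest peak of hs1262KO replicate 2 was 44210 bp, against 24426 to 26088 bp in the other run 4 lists, where the domain was called as 2 peaks. In the Msx1 window mm1179KO replicate 2 had a widest peak of 4468 bp, against 11514 to 12202 bp in the other mm1179KO lists. In the Msx2 window the widest peak was 12755 bp in mm1179KO replicate 4, against 6006 to 6682 bp in the other mm1179KO lists, and 11294 bp in WT replicate 1, against 6039 to 6359 bp in the other WT lists. In both of these lists the Msx2 domain was called as 1 peak.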

How the results depend on the processing

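Of 219 alternative values, 185 kept the direction and side of the threshold, or moved little. For mm1179KO minus WT, lists of equal length made the Msx1 difference 5305.75 bp (exact permutation p = 0.0286) and the Bmp4 one -495.25 bp, a minimum score of 100 made the Bmp4 one -397 bp, and extended windows made the Bmp7 one -20.5 bp. Leaving out each list moved it over 1745 to 7836 bp (Bmp2), -2715 to 6406 bp (Bmp4), -4103 to 6998 bp (Bmp7), -5994 to 4792 bp (Smad7), 1924.5 to 4993 bp (Msx1) and 439 to 8408 bp (Msx2). Run 4 minus run 3 on equal lists was -5601.5 bp (Bmp2), -7839 bp (Bmp4) and -923.75 bp (Msx2), and with extended windows 11487 bp (Bmp2, exact permutation p = 0.0571). With the line as a block its differences (10909, 16715, 61262, 76962, 27233 and 23507.5 bp for Bmp2, Bmp4, Bmp7, Smad7, Msx1 and Msx2) had an exact p of 0.125, the smallest possible. Leaving out each list moved it over 10088 to 12934.5 bp (Bmp2) and 13429 to 18896 bp (Bmp4), with p up to 0.0571, and over 53652 to 64306 bp (Bmp7), 72743 to 80523 bp (Smad7), 26309 to 27806 bp (Msx1) and 22206 to 26102 bp (Msx2). Regions with non-overlapping mm1179KO and WT lengths numbered 2 with a minimum score of 100 and 2 on equal lists, and 5 to 12 with each list left out, with 12 without mm1179KO replicate 2 and 7 without mm1179KO replicate 4 or WT replicate 2. Regions in all of run 4 and none of run 3 numbered 10 on equal lists. Regions called in all 18 lists numbered 9 with a minimum score of 100 and 14 when 50% of a region had to be covered. For these last counts, of regions called in all 18 lists, the share over all regions was not computed. They cannot be set against the genome. Except where the construction shows it (fewer peaks, fewer lists), the cause was not tested. The replicate number did not pair the samples: same-numbered deviations correlated at 0.0996, 0.00405, 0.0389 and 0.274 over 19485 regions. With the replicate block the differences (4563 bp for Bmp2 and so on) were as reported. The exact p-values were 0.25, 0.625, 1, 0.875, 0.125 and 0.625 in the window order above. The smallest exact p possible is 0.125 with this block and 0.0556 with labels permuted within runs. Neither setting could therefore change a call, and both are counted among the 185. The lists give no depth, so no counting error could be set.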
